A study of Mus musculus with 19 samples.

Results

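The immunoglobulin kappa variable genes (Igkv) are the segments from which every mouse kappa light chain takes its variable region. The 98 genes described here are all rows annotated as IG_V_gene whose name begins with Igkv and that are listed in all 4 expression tables, of 22101 gene names listed in at least 1 table. Each gene was expressed as its share of the summed CPM (read counts scaled to a total of 1000000 per library) of the 98 genes in its library, so that usage could be read apart from the amount of light-chain mRNA. The genes fell into 20 subgroups by the number before the hyphen, of which Igkv4 held 26 genes, Igkv8 held 10, Igkv6 and Igkv1 held 9 each and Igkv3 held 8.

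Bulk RNA-seq was made from sorted B-lineage cells of mice given sheep red blood cells (SRBC) by intraperitoneal injection and sampled on day 28. The 6 groups were splenic germinal centre (GC) B cells sorted as CD95+/GL7+ from mice labelled Pik3cg knockout (4 libraries) or wild type (3), antibody-secreting cells (ASC) sorted as CD138+ from wild-type bone marrow (3) or spleen (3), and naive B cells sorted as CD3-/B220+/IgD+ from knockout (3) or wild-type (3) spleen. Pik3cg encodes the catalytic subunit of PI3K-gamma, and all 6 groups were immunized. The design names 4 knockout and 3 wild-type mice, so libraries of different cell types may come from the same animals, and the labels give neither strain, age nor the number of cells sorted. A header line in the naive and ASC tables reads HET above 9 columns labelled as wild type, and the labels are followed below.

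A developing B cell joins 1 V segment to 1 J segment on the kappa locus, and the joined exon is spliced to the single kappa constant exon, Igkc. Most kappa-positive cells therefore transcribe 1 productive V gene, and the mRNA of a sorted population reports which V genes its cells carry, weighted by mRNA per cell. In mouse the V genes lie in both orientations upstream of the J segments, so that joining occurs by deletion or by inversion. In an expanding germinal centre clone all daughters keep the same V gene while somatic mutation alters it. Germline V genes differ most in the loops that touch antigen, and the third of these loops begins in the V segment, just after a conserved cysteine.

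The 3′ ends of 10 members are shown because the results turn on these genes. They are the leading gene of most libraries, its close relative and the genes that led single germinal centre libraries. Also shown are the gene that differed most between the germinal centre groups and the gene called higher in bone marrow than in spleen ASC. The rest followed the replicate number of the ASC libraries. Each line is the last 60 bases of the transcript in the GENCODE M21 annotation of mm10, 5′ to 3′ in the direction of the gene, and the capitals start at the codon of the conserved cysteine, so they mark the germline start of the third loop.
Igkv6-15: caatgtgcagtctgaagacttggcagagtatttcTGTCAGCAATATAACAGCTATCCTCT
Igkv6-23: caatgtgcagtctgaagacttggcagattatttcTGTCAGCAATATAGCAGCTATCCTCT
Igkv1-110: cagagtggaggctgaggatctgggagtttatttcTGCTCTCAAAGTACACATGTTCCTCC
Igkv1-117: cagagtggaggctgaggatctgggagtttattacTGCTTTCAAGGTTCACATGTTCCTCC
Igkv12-44: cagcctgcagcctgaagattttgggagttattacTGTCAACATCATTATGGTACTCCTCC
Igkv12-46: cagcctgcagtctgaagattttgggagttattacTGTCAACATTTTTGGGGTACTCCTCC
Igkv8-30: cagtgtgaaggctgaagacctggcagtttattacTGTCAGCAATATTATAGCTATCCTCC
Igkv14-126: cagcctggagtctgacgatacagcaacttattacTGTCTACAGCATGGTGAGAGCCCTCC
Igkv4-91: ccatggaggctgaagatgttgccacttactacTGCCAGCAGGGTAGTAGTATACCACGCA
Igkv4-55: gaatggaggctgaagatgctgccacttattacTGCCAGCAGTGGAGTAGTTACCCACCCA
Igkv6-15 lies on chromosome 6 at 70406469 to 70406992 on the minus strand, and Igkc at 70726435 to 70726966 on the plus strand. Igkv12-44 (69814631 to 69815154, minus strand) and Igkv12-46 (69764523 to 69765022, minus strand) are near neighbours, as are Igkv1-110 (68270485 to 68271267) and Igkv1-117 (68121046 to 68121827) on the plus strand. Igkv14-126 lies farther from Igkc, at 67896172 to 67896642 on the plus strand. Counted from 1 at the first base of the cysteine codon, the capitals of Igkv6-15 and Igkv6-23 differ at 1 of 26 bases, A14G from the first to the second. Those of Igkv12-44 and Igkv12-46 differ by C10T, A11T, A14G and T15G, and those of Igkv1-110 and Igkv1-117 by C5T, A10G and A13T. Whole transcripts were 94.5% identical between Igkv6-15 and Igkv6-23, 94.4% between Igkv12-44 and Igkv12-46 and 97.5% between Igkv1-110 and Igkv1-117. Over all pairs the median identity was 89.9% within a subgroup and 66.0% between subgroups, and 47 of the 98 members had a relative at 95% or more. How reads that fit several V genes were counted is not given in the sources used here. The split between such relatives is therefore uncertain, and for 91 members the nearest relative lies in the same subgroup.

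The depth of the 19 libraries, read from the worth of 1 read in the deposited CPM, was 10233500 to 21613800 reads by estimate. The 98 genes together drew an estimated 50477 to 1672000 reads per library, so counting error was small beside the differences between libraries: for the leading gene of germinal centre knockout replicate 1, a share of 25.1%, the 95% Wilson interval was 24.8% to 25.5%. These intervals cover counting error only, because the reads carry no molecular identifiers. Pik3cg mRNA did not separate the genotype labels, at 6.55 to 66.0 CPM in knockout and 19.4 to 56.5 CPM in wild-type germinal centre libraries, and at 94.98 to 127 CPM in knockout and 110.1 to 115 CPM in wild-type naive libraries. The ASC libraries carried high levels of secreting-cell markers and the naive libraries of naive markers. The sorted identity was less clear for the germinal centre libraries. Across 7 germinal centre markers the summed level was 2214 to 3044 CPM in knockout and 245.6 to 287 CPM in wild-type libraries, and S1pr2, Gcsam and Rgs13 were at 0 in all 3 wild-type libraries. The 4 naive markers summed to 172 to 485 CPM in knockout and 1707 to 2701 CPM in wild-type libraries. T-cell markers summed to 441 to 872 CPM in knockout and 0 to 1.80 CPM in wild-type germinal centre libraries. Monocyte and macrophage markers summed to 95.9 to 777 CPM in knockout and 34.0 to 168 CPM in wild-type libraries, and erythroid markers to 9.18 to 1633 CPM in knockout and 0 in wild-type libraries. Secreting-cell markers summed to 3762, 10170, 11755 and 10586 CPM in knockout and 6741, 10279 and 10986 CPM in wild-type germinal centre libraries, against 1117 to 1400 CPM in naive libraries. In that list Jchain overlapped, at 2833 to 10421 CPM in knockout and 2071 to 4775 CPM in wild-type germinal centre libraries. Xbp1, Mzb1, Prdm1, Irf4 and Sdc1 were each lower in every knockout than in every wild-type germinal centre library. Xbp1 was at 356 to 541 against 2459 to 3742 CPM, and Sdc1 at 0 to 19.0 against 19.4 to 92.4 CPM. Apart from Jchain and the secreting-cell and monocyte sums, whose ranges overlapped, these marker levels were shifted with the genotype label. Their part in every germinal centre result below was not tested.

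Kappa V transcripts took 10.1% of all CPM in bone marrow ASC and 10.0% in spleen ASC, 0.985% in knockout and 2.14% in wild-type germinal centre cells, and 0.501% in knockout and 0.544% in wild-type naive cells. The 98 genes summed to 103889, 104490 and 94941 CPM in bone marrow ASC and to 93117, 111701 and 96008 CPM in spleen ASC. In germinal centre cells they summed to 4139, 11015, 12243 and 11991 CPM in knockout and 12699, 25614 and 25986 CPM in wild-type libraries, and in naive cells to 4933, 5078 and 5010 CPM in knockout and 5637, 5173 and 5512 CPM in wild-type libraries. Every knockout germinal centre library lay below every wild-type one, and the ASC libraries of the 2 organs overlapped. In bulk samples, fewer cells of a type and less RNA per cell cannot be told apart. Igkc, the constant exon that all these V genes are spliced to, ran beside them, at 7732 to 22735 CPM in knockout and 21812 to 42715 CPM in wild-type germinal centre cells, 277921 to 325348 CPM in ASC and 15727 to 17780 CPM in naive cells. The ratio of the Igkv sum to Igkc lay between 0.503 and 0.608 for germinal centre libraries and between 0.312 and 0.349 for all others, so levels are compared directly only within a table or among those 3 tables, which list the same rows; the interaction below joins the germinal centre and naive tables and compares genotype differences taken within each.

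Kappa usage was broad in every group except the germinal centre cells labelled knockout. The effective number of genes, 1 divided by the sum of squared shares, equals the number of genes in use if all were used equally. It was 9.65, 16.4, 17.4 and 10.4 in knockout germinal centre libraries, against 33.8, 30.7 and 33.6 in wild-type ones. Its mean was 13.5 ± 4.0 (SD, n = 4) in knockout and 32.7 ± 1.7 (SD, n = 3) in wild-type germinal centre cells, and the ranges did not overlap. The other groups were 35.4 ± 2.6 in bone marrow ASC, 33.9 ± 3.2 in spleen ASC, 36.6 ± 2.9 in knockout naive cells and 39.7 ± 1.2 in wild-type naive cells (SD, n = 3 each), with overlapping ranges between the ASC groups and between the naive genotypes. The 5 highest genes took 52.1% of the sum in knockout and 28.7% in wild-type germinal centre cells, and 24.4% to 28.6% in the other groups. On average 53.5 genes reached 0.1% of the sum in knockout germinal centre libraries, 72.3 in wild-type ones, 72.7 in bone marrow ASC, 73.0 in spleen ASC, 81.0 in knockout naive and 81.3 in wild-type naive cells. No test was run on these scores over the members.

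**Figure D1:**
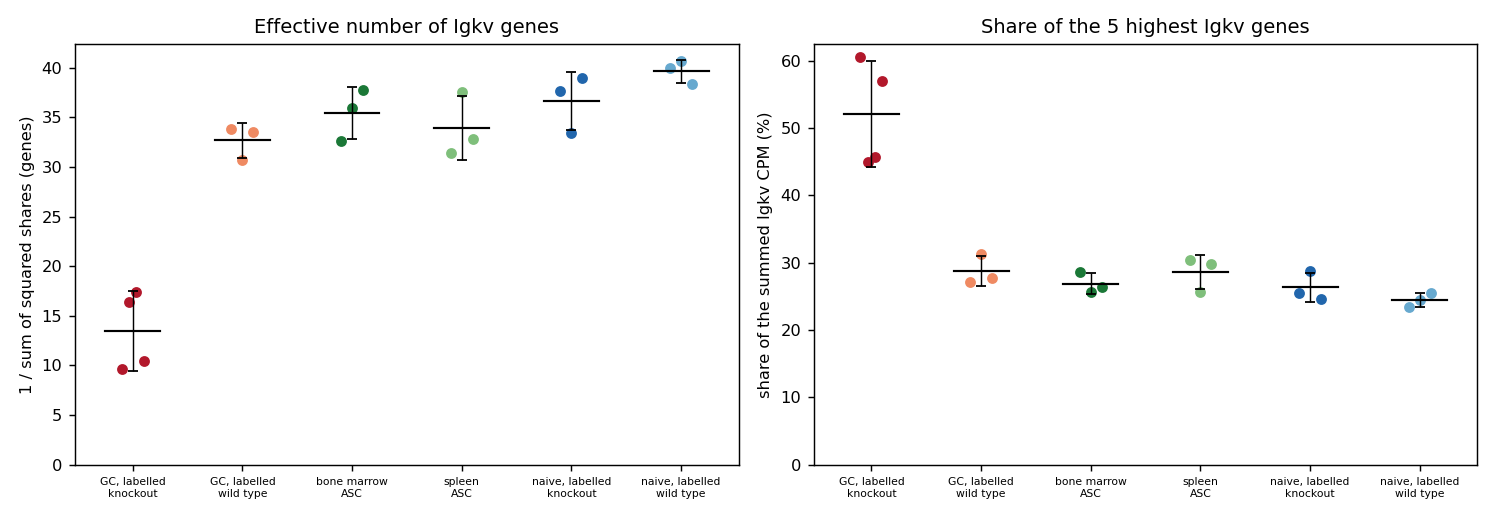
Effective number of Igkv genes (left, genes) and share of the 5 highest Igkv genes (right, % of the summed Igkv CPM) in each of the 19 libraries. Points are libraries, lines are means and bars are SD; the 4 germinal centre libraries labelled knockout lie at 9.65 to 17.4 effective genes, below all others.

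Igkv6-15 was the most used kappa V gene of these mice, and it led 13 of the 19 libraries. In naive cells it held 9.07%, 9.59% and 8.43% of the sum in knockout and 7.21%, 7.68% and 8.65% in wild-type libraries, and it was first in all 6. In ASC it held 6.48%, 5.44% and 6.63% in bone marrow and 6.32%, 5.67% and 7.48% in spleen. In wild-type germinal centre cells it held 8.51%, 5.02% and 7.50%, and led replicates 1 and 3. In knockout germinal centre cells it differed 10.2-fold between libraries, at 25.1%, 5.68%, 2.46% and 18.9%. Its close relative Igkv6-23 was low where it was high, at 0.855%, 9.78%, 10.4% and 1.04%, against 4.77%, 2.91% and 4.20% in wild-type germinal centre cells.

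The leading gene differed among the knockout germinal centre libraries, though some of the highest genes were shared between them. Replicate 1 was led by Igkv6-15, replicate 2 by Igkv1-110 at 14.9%, replicate 3 by Igkv12-44 at 12.3%, and replicate 4 by Igkv12-46 and Igkv6-15, both at 18.9%. Igkv1-110 held 10.5%, 14.9%, 4.71% and 5.13% in the knockout libraries, against 3.49%, 3.98% and 3.14% in wild-type ones. It was the only 1 of 98 genes whose share was higher in every knockout than in every wild-type germinal centre library, while 32 were lower in every one. By the same criterion and scaling, 30% of all genes tested were higher in every knockout library and 1.55% lower. Igkv12-44 held 10.6%, 8.98%, 12.3% and 1.39% in knockout and 5.10%, 5.84% and 3.87% in wild-type libraries, so the groups overlapped through replicate 4. Igkv12-46 held 0.852%, 0.269%, 2.48% and 18.9% in knockout and 2.47%, 2.45% and 2.81% in wild-type libraries. Igkv1-117, a near copy of Igkv1-110, held 8.74%, 5.50%, 2.22% and 0.631% in knockout and 3.36%, 4.11% and 5.65% in wild-type libraries. Igkv10-96 held 5.12%, 0.729%, 8.63% and 0.390% in knockout and 3.73%, 1.29% and 2.60% in wild-type libraries.

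Among the knockout germinal centre libraries 15 genes reached 5% of the sum in at least 1 library, against 6 among the wild-type germinal centre, 6 among the bone marrow ASC, 7 among the spleen ASC, 3 among the knockout naive and 2 among the wild-type naive libraries. Beside the genes above, these 15 held Igkv4-63. This gene, named after its values were seen, reached 7.16% in 1 knockout library and was 0.0126% in another, against 0.0688% to 0.4996% in wild-type germinal centre libraries, 0.306% to 1.80% in bone marrow ASC, 0.424% to 1.90% in spleen ASC and 0.474% to 0.884% in naive cells. Of the 98 genes, 31 differed by 10-fold or more between the lowest and highest knockout germinal centre library and 37 were at 0 in at least 1 of them. Among the 6 naive libraries no gene that was above 0 in all differed by 10-fold, and 6 were at 0 in at least 1.

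**Figure D2:**
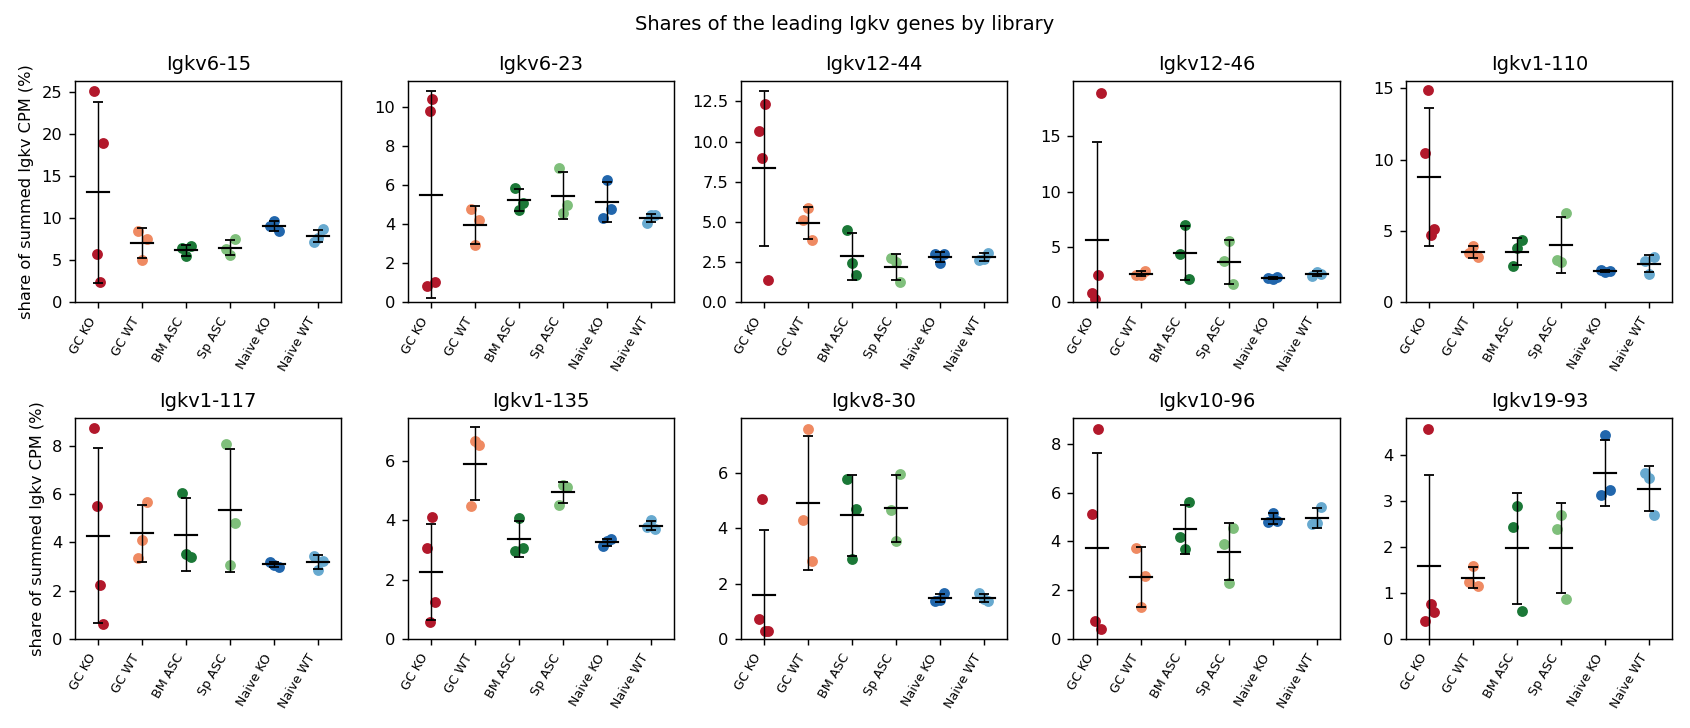
Shares of the 10 genes that led a library or were among the 5 highest of a group, in % of the summed Igkv CPM. Points are libraries, lines are means and bars are SD; knockout (KO) germinal centre libraries spread widely, Igkv6-15 from 2.46% to 25.1%, while naive libraries lie close together.

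Igkv8-30 set the secreting cells apart from naive cells. It held 5.79%, 2.90% and 4.70% in bone marrow ASC, 4.66%, 3.53% and 5.96% in spleen ASC and 1.35% to 1.66% in the 6 naive libraries. Its ranges did not overlap between ASC and naive cells. In germinal centre cells it held 0.734%, 5.07%, 0.296% and 0.280% in knockout and 4.31%, 7.57% and 2.83% in wild-type libraries. Igkv19-93, the single gene of its subgroup, held 2.44%, 2.89% and 0.608% in bone marrow ASC, 2.40%, 2.70% and 0.868% in spleen ASC and 2.71% to 4.43% in naive cells. Igkv1-135 held 2.97%, 4.07% and 3.06% in bone marrow ASC and 4.52%, 5.16% and 5.11% in spleen ASC, without overlap, and 3.13% to 3.99% in naive cells.

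Igkv6 was among the 3 highest subgroups by mean share in all 6 groups. It held 14.9% to 27.6% in knockout and 14.4% to 20.4% in wild-type germinal centre cells, 15.2% to 20.2% in ASC and 18.9% to 24.3% in naive cells. Igkv4, the largest subgroup, held 19.6%, 23.4% and 21.5% in bone marrow ASC, above the 14.5%, 16.8% and 14.8% of wild-type naive cells, and 16.4%, 25.7% and 16.5% in spleen ASC, which overlapped them. Igkv1 held 11.8% to 12.0% in bone marrow ASC and 11.7% to 17.3% in spleen ASC, both above the 9.66% to 10.9% of wild-type naive cells. Igkv17 held 0.908% to 1.83% in bone marrow ASC and 0.809% to 1.89% in spleen ASC, below the 3.18% to 3.42% of wild-type naive cells. It was also low in germinal centre cells, at 0.454% to 1.56% in knockout and 0.820% to 0.987% in wild-type libraries. Igkv3 and Igkv13 were also lower in every ASC than in every wild-type naive library. Of the 20 subgroups, 3 were higher and 6 lower in every bone marrow ASC than in every wild-type naive library, where by the same criterion and scaling 0.96% of all genes tested were higher and 97.1% lower. In spleen ASC 3 were higher and 7 lower, where 0.776% of all genes were higher and 97% lower. Between the germinal centre groups, 30% of all genes tested were higher and 1.55% lower in every knockout library by the same criterion and scaling. There no subgroup was higher and 3 were lower in every knockout than in every wild-type library. Those were Igkv8, at 4.62%, 7.45%, 3.22% and 2.66% in knockout and 11.2%, 20.4% and 13.9% in wild-type libraries, Igkv14, at 1.15% to 3.43% in knockout and 4.33% to 8.40% in wild-type libraries, and Igkv11, the single gene Igkv11-125, at 0.0764%, 0%, 0% and 0% in knockout and 0.0769%, 0.618% and 0.556% in wild-type libraries, a near tie between replicates 1.

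**Figure D3:**
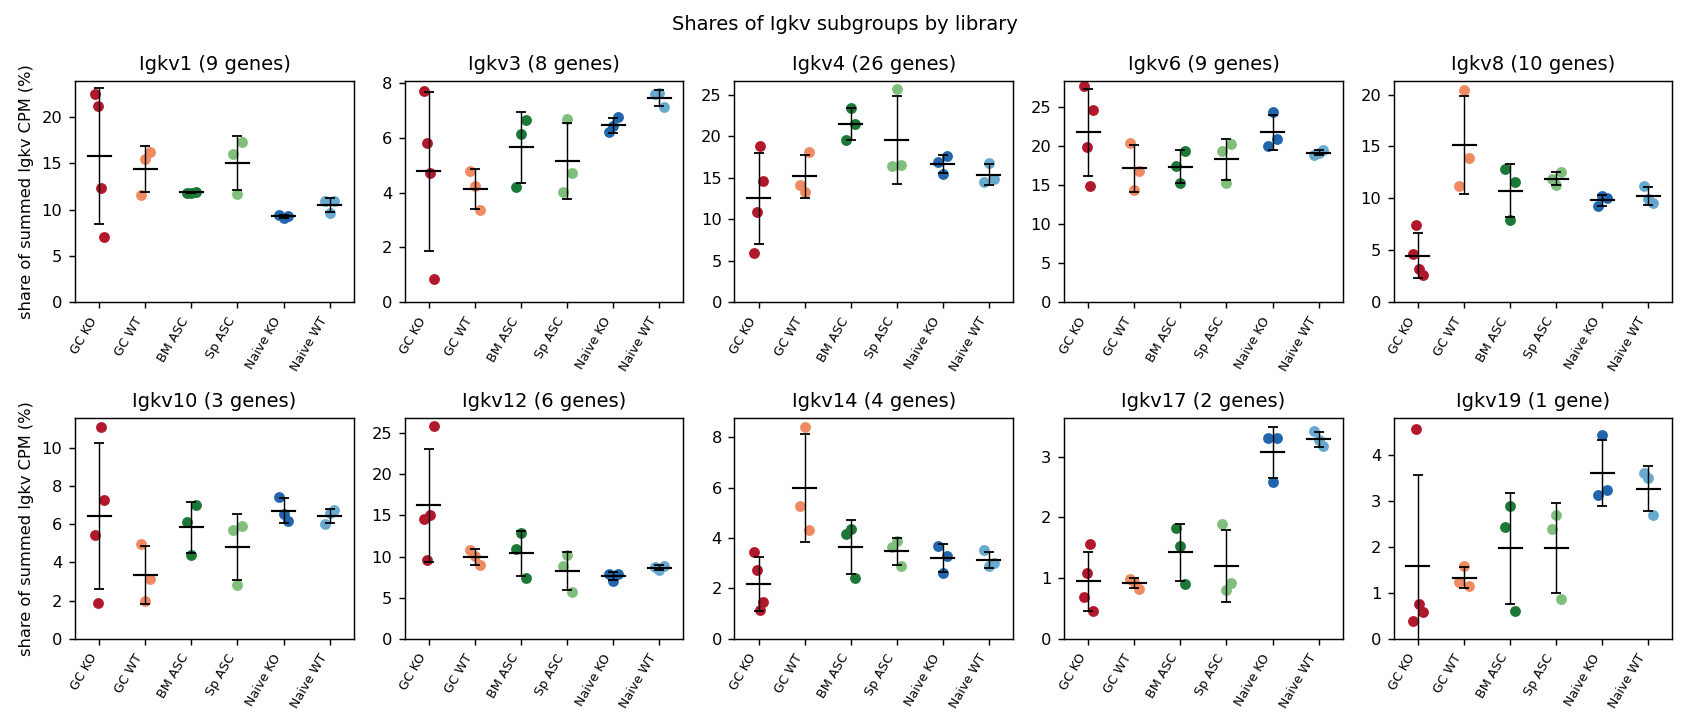
Shares of 10 of the 20 Igkv subgroups in % of the summed Igkv CPM, with the number of genes in each. Points are libraries, lines are means and bars are SD. Igkv17 lies lower in ASC and in germinal centre than in naive libraries, and Igkv8 lower in knockout than in wild-type germinal centre libraries.

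How far usage differed between libraries was measured as the sum of absolute share differences divided by 2, which is 0 for the same usage and 1 when no gene is shared. Knockout germinal centre libraries lay 0.473 to 0.695 from each other, with a mean of 0.570 over 6 pairs, farther apart than any other replicates. Wild-type germinal centre libraries lay 0.204 to 0.257 apart, bone marrow ASC 0.242 to 0.260, spleen ASC 0.228 to 0.288, knockout naive 0.0873 to 0.121 and wild-type naive libraries 0.0901 to 0.103. Knockout and wild-type germinal centre libraries lay 0.447 to 0.676 apart, which overlapped the range among the knockout libraries themselves. The 4 knockout libraries lay 0.462, 0.496, 0.481 and 0.620 from the mean usage of the naive libraries, and the wild-type ones 0.191, 0.314 and 0.259.

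**Figure D4:**
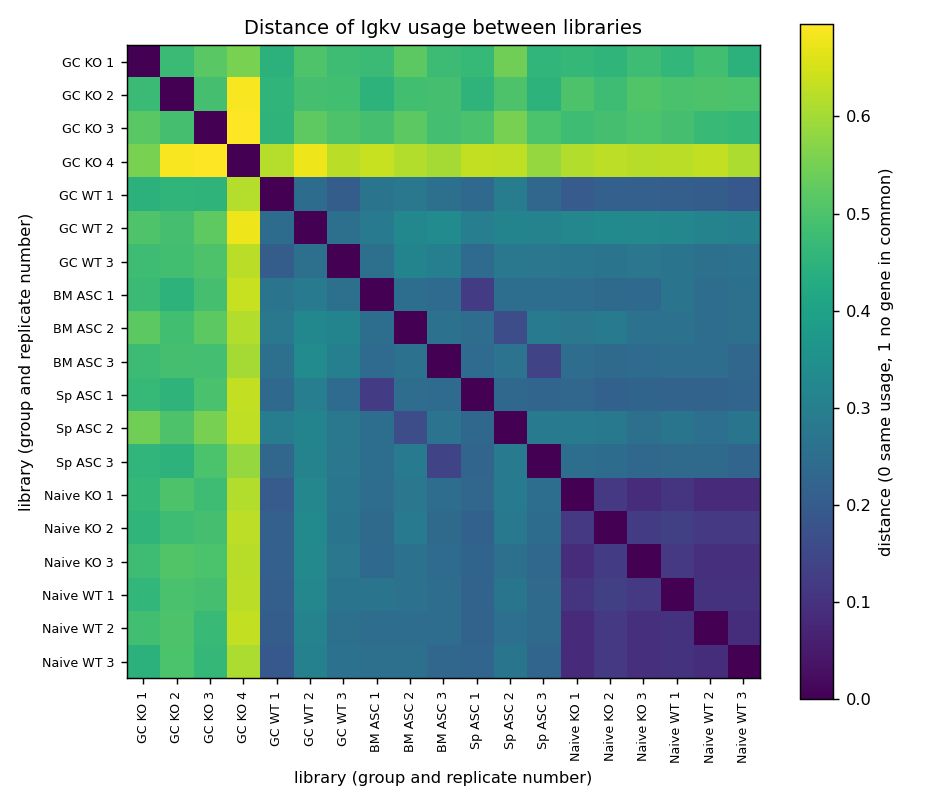
Distance of Igkv usage between each pair of the 19 libraries, by group and replicate number (KO knockout, WT wild type, BM bone marrow, Sp spleen). The knockout germinal centre libraries lie 0.473 to 0.695 from one another, the naive libraries 0.0854 to 0.133 across genotypes.

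The comparison of knockout with wild-type germinal centre cells asked which V genes differed in level between the labelled genotypes. Of 78 members that passed a filter of a mean of 10 CPM, 0 were higher and 30 lower in knockout cells at an adjusted p under 0.05 (limma on log2(CPM + 1), Benjamini-Hochberg over 8522 genes), where 5.09% of all genes tested were lower and 8.54% higher. Another 20 members did not reach the filter. The 30 genes lay in 12 subgroups, with 7 of 8 tested Igkv8 genes and 8 of 19 tested Igkv4 genes among them. Together they held 5.95% to 12.9% of the sum in knockout and 34.3% to 48.7% in wild-type libraries. The median log2 fold change of the 78 members was −2.49, against 0.03 for all genes tested. Scaled to the Igkv sum, so that a fold change is a ratio of shares, 0 were higher and 17 lower, where 0.786% of all genes were lower, 13.2% higher and 14% either. That scaling moved the median of all genes from 0.03 to 1.15. Leaving out wild-type replicate 1, 2 or 3 left 17, 11 and 11 genes lower, and leaving out a knockout replicate left 23 to 33.

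Igkv14-126 differed most. It had 0, 3.94, 0 and 1.58 CPM in knockout germinal centre cells, against 408, 1593 and 460 CPM in wild-type cells, which was 0% to 0.0357% of kappa V usage in knockout and 3.21%, 6.22% and 1.77% in wild-type libraries. The 2 libraries at 0 allow up to 0.173 and 0.182 CPM, the level of 3 reads. The log2 fold change was −8.47 (SE 0.75, limma adjusted p = 0.0002865) and −7.74 on the share scale. In mouse this gene is known as the partner of the heavy-chain segment Ighv11-2 in B-1 cells that bind phosphatidylcholine. Its share was 0.784% to 2.08% in bone marrow ASC, 0.586% to 1.87% in spleen ASC, and 0.249% to 0.579% in naive cells, and every wild-type germinal centre library lay above every naive one.

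3 more genes led the list. Igkv11-125 had 3.16 CPM in knockout replicate 1 and 0 in the other 3, against 9.76, 158 and 144 CPM in wild-type libraries (log2 fold change −5.46, SE 1.15, limma adjusted p = 0.0143), and without wild-type replicate 2 or 3 it no longer passed, at an adjusted p of 0.114 and 0.0963. Igkv14-100 had 6.96, 11.9, 4.61 and 0 CPM in knockout and 100.2, 204 and 228 CPM in wild-type libraries (log2 fold change −5.10, SE 0.85, limma adjusted p = 0.005067). Igkv12-89 had 2.82, 5.99, 0 and 5.83 CPM in knockout and 108, 64.6 and 224 CPM in wild-type libraries (log2 fold change −4.99, SE 0.82, limma adjusted p = 0.004798). In none of the 3 did the groups overlap. None of the genes that led a knockout library passed the test as higher. Igkv1-110 had 434, 1639, 577 and 615 CPM in knockout and 443, 1019 and 817 CPM in wild-type libraries, so that its level overlapped where its share did not.

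Between naive B cells of the 2 labels no difference in a kappa V gene passed the test. Of 73 tested members 0 passed limma, where 0% of all genes tested did, and 6 had an unadjusted p under 0.05, all lower in knockout cells. Igkv3-10 had the smallest p, with 37.0, 38.9 and 33.9 CPM in knockout and 62.9, 61.4 and 69.3 CPM in wild-type naive libraries. Its ranges did not overlap, and the difference was −0.80 on the log2 scale (SE 0.17, adjusted p = 0.728 by limma). Igkv1-135 was next, with 154, 167 and 168 CPM in knockout and 212.4, 206 and 204 CPM in wild-type libraries (log2 fold change −0.35, SE 0.10, limma adjusted p = 0.739). Among subgroup shares, Igkv6 and Igkv20 were higher and Igkv1, Igkv3 and Igkv12 lower in every knockout than in every wild-type naive library, where by the same criterion and scaling 10.3% of all genes tested were higher and 2.56% lower. The Igkv20 gene was at 0.0109% to 0.0223% in knockout and at 0% in wild-type naive libraries. Usage lay 0.0854 to 0.133 apart across the genotypes, against 0.0873 to 0.121 within knockout and 0.0901 to 0.103 within wild-type libraries.

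The genotype difference was larger in germinal centre than in naive cells for 17 of 76 tested members, all lower, where 2.82% of all genes tested were lower and 7.83% passed in either direction (limma interaction, adjusted p under 0.05). Igkv14-126 had the largest difference, −8.44 on the log2 scale (SE 0.92, limma adjusted p = 0.0001694), and its level was 12.5 to 28.5 CPM in knockout and 17.8 to 22.2 CPM in wild-type naive cells. The count was 27 without knockout germinal centre replicate 2 and 29 without replicate 3, and 11 without wild-type germinal centre replicate 2 or 3, knockout naive replicate 1 or 3, or wild-type naive replicate 2 or 3. It was 3 on the share scale, where 0.203% of all genes were lower and 2.69% higher. Of the 4 named interaction calls Igkv14-126 passed there, while Igkv11-125 at −4.13, Igkv14-100 at −3.56 and Igkv12-89 at −3.33 did not (limma adjusted p = 0.0785, 0.0836 and 0.0855).

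Most kappa V genes tested were higher in secreting than in naive cells. Of 89 tested members 78 were higher and 0 lower in bone marrow ASC than in wild-type naive cells, where 4.05% of all genes tested were higher and 89% lower. In spleen ASC 82 were higher and 0 lower than in the same naive cells, where 5.35% of all genes were higher and 83.3% lower. The 2 comparisons share the naive libraries. The filter took the mean over all 4 groups of the fit, so a member could pass through its ASC level alone. In wild-type naive libraries 72 members averaged 10 CPM or more, against 89 in bone marrow and 92 in spleen ASC. Igkv4-90, given below, was under 10 CPM in every wild-type naive library. The median log2 fold change of members was 3.85 in bone marrow ASC and 3.83 in spleen ASC, against −2.31 and −1.95 for all genes tested. Igkv8-30 had 4344, 3939 and 5724 CPM in spleen ASC and 92.7, 75.3 and 74.6 CPM in wild-type naive cells (log2 fold change 5.82, SE 0.23, limma adjusted p = 9.187e-10). Igkv4-57-1 rose by 5.82 in bone marrow ASC and 5.67 in spleen ASC, and Igkv14-126 by 5.80 and 5.46, on the log2 scale. In spleen ASC, Igkv4-68 rose by 5.24. In bone marrow ASC, Igkv4-90 had 581, 451 and 1484 CPM and in naive wild-type cells 5.66, 5.31 and 7.21 CPM, a log2 difference of 6.70 (SE 0.60, limma adjusted p = 3.243e-07). In spleen ASC the same gene had 91.7, 282.8 and 676 CPM, also above every naive library.

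Because the whole group rose, usage was read on the share scale. There 8 members were higher and 24 lower at an adjusted p under 0.05 in bone marrow ASC than in wild-type naive cells, where 0.881% of all genes tested were higher and 97.2% lower. In spleen ASC 6 were higher and 19 lower, where 0.815% of all genes were higher and 97% lower. Because 98.1% and 97.8% of all genes passed, an adjusted p was almost its unadjusted p, and these counts are in effect unadjusted. The medians of all genes moved to −5.95 and −5.68. Igkv8-30 gained 1.53 in bone marrow and 1.64 in spleen ASC on the log2 scale of shares, and Igkv14-126 gained 1.65 and 1.32. Igkv10-95 and Igkv4-69, named with the next pair after their values were seen, were lower, with log2 share differences of −3.75 and −3.66 in bone marrow and −3.03 and −2.15 in spleen ASC. Igkv17-121 and Igkv17-127, which make up the Igkv17 subgroup, differed by −1.04 and −1.49 in bone marrow and −1.57 and −1.55 in spleen ASC. Igkv6-15, the leading gene, differed by −0.34 in bone marrow ASC (SE 0.16) and by −0.28 in spleen ASC (SE 0.16).

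Between bone marrow and spleen ASC, in the fit without the replicate block, 1 of 89 tested members was higher and 3 lower in bone marrow. Of all genes tested 0.145% were higher, 7.19% lower and 7.34% either, and the median of all genes was −0.39. On the share scale 0 were higher and 3 lower, where 2.8% of all genes passed, all lower. Igkv8-16 had 15.4, 16.5 and 7.15 CPM in bone marrow and 95.2, 103 and 54.0 CPM in spleen ASC, a log2 difference of −2.62 (SE 0.35, limma adjusted p = 0.001472). Igkv4-69 had 13.9, 14.2 and 13.9 CPM in bone marrow and 47.8, 56.9 and 39.9 CPM in spleen ASC (log2 difference −1.70, SE 0.28, limma adjusted p = 0.004432). Igkv8-27 had 636, 477 and 688 CPM in bone marrow and 1728, 1200 and 1094 CPM in spleen ASC (log2 difference −1.15, SE 0.20, limma adjusted p = 0.006713), and its adjusted p was 0.0777 with ASC libraries alone. Igkv4-91, which in mouse pairs with Ighv12-3 in another group of phosphatidylcholine-binding B-1 cells, had 1793, 2424 and 1529 CPM in bone marrow and 949, 1117 and 1333 CPM in spleen ASC (log2 difference 0.74, SE 0.21, limma adjusted p = 0.0473). With the replicate block its adjusted p was 0.0608, and without any 1 of bone marrow replicates 1 and 2 or spleen replicates 1 to 3 it was 0.0714 to 0.156. The count of 4 was 9 without bone marrow replicate 3. With ASC libraries alone, chosen after seeing the data, it was 2, both lower, without the replicate block and 6, of which 2 were higher and 4 lower, with it.

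Each bone marrow library resembled the spleen library of the same number. Bone marrow and spleen ASC of the same number lay 0.123, 0.164 and 0.142 apart, against 0.242 to 0.291 for different numbers, and against 0.228 to 0.288 between spleen libraries. Of the 6 ways to pair the 3 bone marrow with the 3 spleen libraries, that by number had the smallest mean distance, 0.143 against 0.214 to 0.261, and the exact one-sided permutation p of 0.167 is the smallest that 6 pairings allow. The share deviations of the 98 genes from their organ mean correlated at 0.715, 0.669 and 0.7995 between libraries of the same number, across genes that are not independent replicates, and at −0.467 to −0.287 between libraries of different numbers, where deviations that sum to 0 over 3 libraries favour negative values. Igkv4-55, named after its values were seen, held 4.25% in bone marrow and 4.66% in spleen ASC of number 2, against 0.457% to 0.720% in the other 4. Igkv12-46 held 6.97% and 5.57% in number 2, 4.39% and 3.70% in number 1, and 2.07% and 1.64% in number 3, in bone marrow and spleen. Igkv1-117 held 6.05% in bone marrow and 8.07% in spleen of number 1, and Igkv19-93 held 0.608% and 0.868% in number 3, against 2.40% to 2.89% in the others. The lambda constant gene Iglc1 was 5850 CPM in bone marrow and 5238 CPM in spleen of number 2 and 1290 to 2714 CPM in the others.

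**Figure D5:**
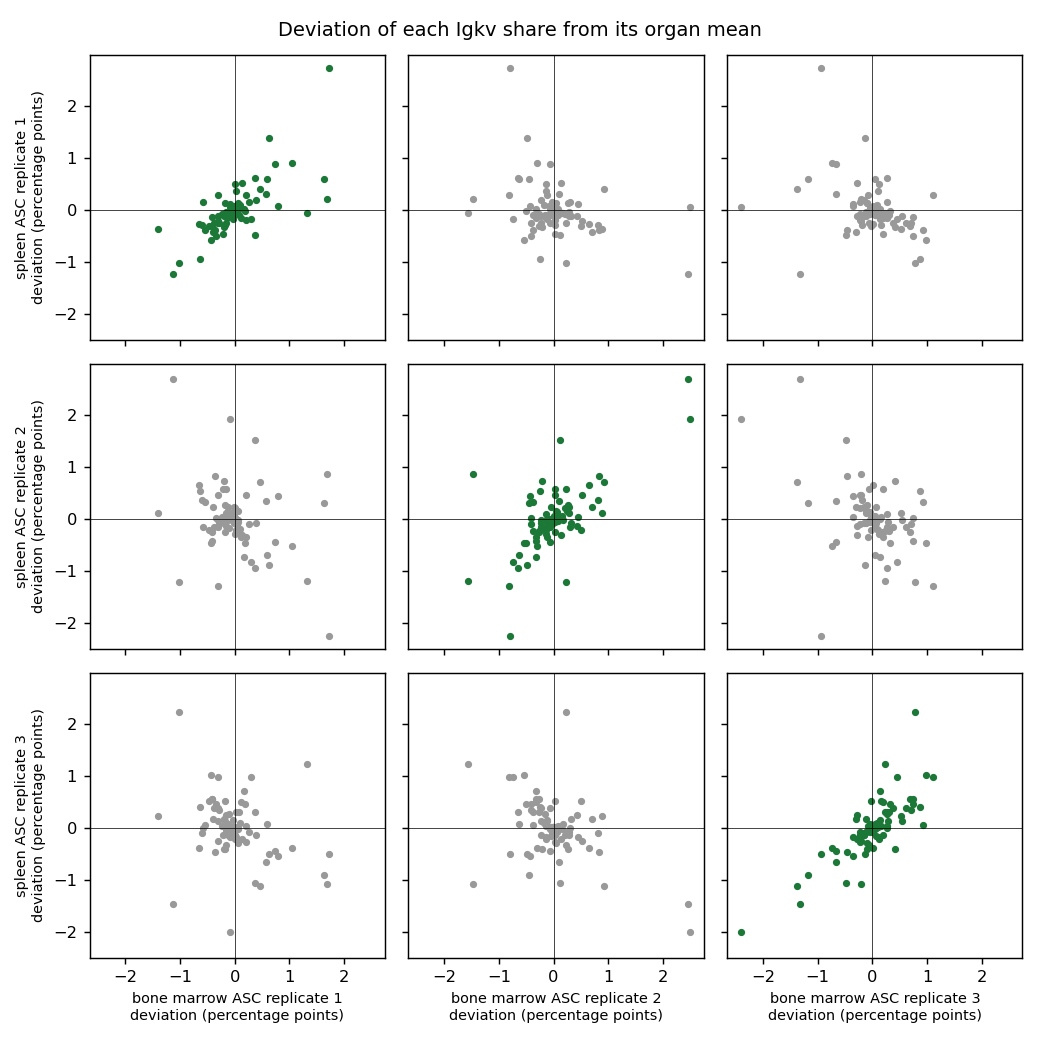
Deviation of each of the 98 Igkv shares from its organ mean (percentage points) in a bone marrow library (horizontal) and a spleen library (vertical), for all 9 pairs. Green panels are pairs with the same replicate number, whose deviations correlate at 0.669 to 0.7995, and grey panels are the other 6 pairs.

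Usage was also read by position along the locus. The 49 members nearer Igkc in genome order held 57.0% of the sum in bone marrow ASC, 55.1% in spleen ASC, 55.9% in knockout naive and 55.8% in wild-type naive cells. In germinal centre cells they held 58.0%, 49.4%, 47.8% and 60.9% in knockout and 56.5%, 56.9% and 55.3% in wild-type libraries. Of the members, 37 lie on the plus and 61 on the minus strand, and the minus-strand genes held 56.7% to 77.6% in knockout and 63.2% to 65.7% in wild-type germinal centre libraries.

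Companion genes of the light chain were counted from 1 list of 23 names. In germinal centre cells 2 of 12 tested were higher and 1 lower in knockout, where 13.6% of all genes tested passed in either direction. Among them the B-cell receptor chain Cd79b was higher, at a log2 fold change of 0.70, and the lambda V gene Iglv2 was lower, at −2.06. Igkc did not pass, at −1.01 (limma adjusted p = 0.139), nor did the lambda constant gene Iglc1, at −1.59 (limma adjusted p = 0.0569). In naive cells 0 of 12 passed. Against wild-type naive cells, 4 of 11 were higher and 3 lower in bone marrow ASC, where 4.05% of all genes were higher and 89% lower, and 4 higher and 4 lower in spleen ASC, where 5.35% were higher and 83.3% lower. Igkc rose by 4.18 in bone marrow and 4.11 in spleen ASC, and Iglc1 by 1.68 and 1.24, on the log2 scale. Between bone marrow and spleen ASC 0 were higher and 2 lower, where 0.145% of all genes were higher and 7.19% lower: the receptor chain Cd79b at −1.22 and Iglc3 at −0.92. The kappa J segments were not analysed here.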

How the data were processed

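RNA of sorted cells was sequenced in bulk. Per the submitters' processing notes the reads were aligned with STAR to mm10. The authors deposited 4 tables of gene values in CPM (each column sums to 1000000); 0.0001 had been added to every value of the germinal centre table and was subtracted. The worth of 1 read in the deposited CPM gave the depth. Taking counts below 1000 reads, 61.6% to 67.8% of germinal centre values and 85.2% to 88.8% of the others came out whole within 0.02 reads, so counts were not used for testing. limma 3.58.1 (R 4.3.3, lmFit, eBayes with trend) was fitted to log2(CPM + 1) of every gene averaging 10 CPM or more over the libraries fitted. Benjamini-Hochberg adjustment was made over all of them. A gene could pass this filter through the group where it is high, and fold changes on this scale understate the change of low genes. The fit was also run on simulated data, and the outcome is not reported here. Germinal centre and naive genotypes were fitted within their tables, and ASC with naive cells in 1 fit of 4 groups, since those 3 tables list the same rows; there cell type and table cannot be told apart. The interaction was fitted over the 4 germinal centre and naive groups, on genes in both tables, as the difference of the genotype effects within each. Shares were computed in pandas 2.3.3 (Python 3.11.15), exact tests in SciPy 1.17.1, alignments in Biopython 1.88 and figures in matplotlib 3.10.9. Names and positions come from the files and GENCODE M21 on mm10. The labels tie no library to an animal, so p-values measure the spread between these libraries.

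Genes named are those highest in a library, the 5 with the highest mean share in a group, the 4 called members with the largest fold change in each direction (or the 2 smallest p), and Igkc and Iglc1; the kappa J genes of the same rule were not analysed here, and 1 companion gene is not reported here. The members and lists were chosen with earlier results of these data known. Replicate numbers were checked for pairing: deviations of libraries with the same number correlated at 0.164, 0.234 and 0.243 between bone marrow and spleen ASC, so these numbers were taken to pair the samples. The main fit of bone marrow against spleen ASC did not use this pairing, and only the fits with the replicate block did. In the naive and germinal centre comparisons, which set knockout against wild type, the libraries share only a number. Between ASC and wild-type naive libraries of the same number the deviations correlated at −0.00815 to 0.0631. Whether those libraries come from the same animals cannot be told from this. Alternatives were other pseudocounts, no filter, scaling to the Igkv or the non-immunoglobulin sum, robust estimation, the replicate block, each library left out, other breadth and distance measures, and, added after seeing the data, ASC libraries alone with and without the block.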

Additional observations from a re-analysis of the deposited data

Results flagged for a closer look

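Among 40 values of the 4 germinal centre libraries labelled knockout, 10 had 1 library far from the other 3 (by Dixon's 95% criterion, which chance exceeds in about 1 of 20 groups; several of these values are the same gene counted as gene and as subgroup). Replicate 1 stood apart in its summed Igkv level of 4139 CPM; its secreting-cell markers summed to 3762 CPM, against 10170 to 11755 CPM in the other knockout libraries, and the part of this was not tested. It also stood apart in Igkv11-125 and its subgroup Igkv11 at 0.0764% and in Igkv20 at 0.0472%, where the other 3 libraries were at 0, so that any value above 0 would have been picked out. Replicate 2 stood apart in Igkv8-30 at 5.07%, in Igkv19-93 and its subgroup Igkv19 at 4.57%, and in Igkv13 at 5.83%. Replicate 4 stood apart in Igkv12-46 at 18.9% and in Igkv16 at 3.75%.

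The genotype difference differed between germinal centre and naive cells, by the interaction test of limma, for 17 genes. The named ones were Igkv14-126 at −8.44, Igkv11-125 at −5.46, Igkv14-100 at −4.74 and Igkv12-89 at −4.49 on the log2 scale, of which the last 3 did not pass on the share scale.

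Outside the 98 genes, the pseudogene Igkv4-77 had 122 CPM in knockout germinal centre replicate 1, against 0.0555, 17.2 and 10.1 CPM in the other knockout and 13.5 to 25.1 CPM in wild-type germinal centre libraries.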

How the results depend on the processing

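Of 1852 alternatives to 250 results, 1778 left the result the same and 0 reversed it. A group mean of a score or share was the same if it moved by no more than the SD of its libraries. Leaving out 1 library or taking the median can never move such a mean farther, so these alternatives could not fail. A reversal could be scored only for the 330 alternatives to named fold changes. The count of Igkv genes called was 17 between germinal centre groups, 32 for bone marrow ASC against naive, 25 for spleen ASC against naive and 3 for the interaction when scaled to the Igkv sum, and 2 between bone marrow and spleen with ASC libraries alone, or 6 with the block there. Companion genes called numbered 5 with a pseudocount of 5 in germinal centre cells, 1 for the interaction scaled to the Igkv sum, and 1 between bone marrow and spleen without a filter, scaled to the non-immunoglobulin sum, with ASC libraries alone, and with the block and Igkv scaling there. With single libraries left out the Igkv count was 11 to 33 between germinal centre groups, 3 to 9 between bone marrow and spleen and 11 to 29 for the interaction, and the companion count was 2 to 8, 1 to 2 and 2 to 6. The cause of these shifts was not tested.

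With the replicate block the Igkv counts were 31 in germinal centre cells, 0 in naive cells, 3 between bone marrow and spleen, 78 and 84 for bone marrow and spleen ASC against naive, and 19 for the interaction, and the germinal centre companions numbered 8. The germinal centre and naive libraries with the same number correlated at 0.0787, 0.000565 and 0.00779 and at −0.0471, 0.0379 and −0.0336, so they share only a number. The block ended the calls of Igkv11-125 in germinal centre cells (limma adjusted p = 0.0675) and in the interaction (0.0541).

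As the exponential of the Shannon entropy the effective number was 22.4 in knockout and 46.7 in wild-type germinal centre cells, 48.7 in bone marrow ASC, 48.0 in spleen ASC, 53.4 in knockout and 55.1 in wild-type naive cells. At a threshold of 0.5% the number of genes was 26.8, 47.7, 51.3, 49.7, 50.3 and 52.3 in the same order. With all Igkv rows it was 83.0 at 0.1% in knockout naive cells, the proximal share was 55.6% in wild-type naive cells and the Igkv11 share 0.0806% in knockout germinal centre cells. As 1 minus the Spearman correlation the mean distance was 0.334, 0.130, 0.163, 0.151, 0.0410 and 0.0551 in that order of groups. Without single replicates the distance was 0.204 to 0.257 in wild-type germinal centre, 0.242 to 0.260 in bone marrow ASC, 0.228 to 0.288 in spleen ASC, 0.0873 to 0.121 in knockout and 0.0901 to 0.103 in wild-type naive cells. In these groups of 3 libraries that leaves 1 pair, so the values repeat the pair distances given above and add no check. Genes at 0 in 1 library cannot be resolved below 3 reads.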

Other observations

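Ighv11-2, the heavy-chain segment known in mouse to pair with Igkv14-126, was looked up after the Igkv14-126 values were seen. As a share of the summed Ighv CPM of its library it held 0.635%, 0.264%, 0.456% and 0% in knockout germinal centre libraries, against 14.5%, 24.5% and 5.32% in wild-type ones. By share the order of the wild-type libraries was the same for both segments, with replicate 2 highest and replicate 3 lowest. By CPM replicate 2 was highest for both, but the lowest was replicate 1 for Igkv14-126 and replicate 3 for Ighv11-2. It held 0.172% to 1.34% in bone marrow ASC, 0.129% to 2.29% in spleen ASC, 0.0514% to 0.125% in knockout naive and 0.0798% to 0.242% in wild-type naive cells. Ighv12-3, the partner of Igkv4-91, held 0% in all 4 knockout and at most 0.0159% in wild-type germinal centre libraries. In ASC, where Igkv4-91 was called higher in bone marrow, Ighv12-3 held 0.00125% to 0.00295% in bone marrow and 0.00119% to 0.0107% in spleen. Its share was 0% to 0.0672% in knockout naive and 0.0177% to 0.0782% in wild-type naive cells. No test was run on these values.

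Igkv7-33, also chosen after its values were seen, held 1.53% in wild-type naive replicate 3, against 0% and 0.0282% in the other wild-type naive libraries and 0.0109% to 0.0328% in the knockout ones. It had 84.2 CPM in that library, and at most 98.0 CPM elsewhere, in bone marrow ASC replicate 1.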
